A study of Mus musculus with 2 samples.

Results

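Runx3 peaks were examined at 4 genes whose products steer the actin cytoskeleton or the GTPases around it in leukocytes, Rac2, Cyth4, Coro1a and Vav1. The members are the peaks of the deposited Runx3 list whose midpoint falls in 1 of 3 mm9 windows: chr15:78370000-78470000, named for Rac2 and Cyth4, chr7:133800000-133880000, named for Coro1a, and chr17:57380000-57500000, named for Vav1. They number 25 of the 19647 peaks in the list (0.127%), with 14 in the Rac2 and Cyth4 window, 7 in the Vav1 window and 4 in the Coro1a window. The windows were chosen from the positions of these peaks, so the counts, densities and spacing below describe the selection and were not tested. No gene annotation of mm9 was used here, so the gene names of the windows come from the selection rule. The gene order of another build, GRCm38.p6, was used for neighbours only.

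The study mapped Runx3, a Runt-domain transcription factor, by chromatin immunoprecipitation sequencing (ChIP-seq) in mouse natural killer (NK) cells. The Runx3 library came from wild-type mice of the outbred ICR strain that had received 2 injections of IL-15/Ra complexes 2 days apart. Splenic NK cells, 40000000 in number, were enriched with a negative selection kit and then sorted as positive for NKp46, an activating receptor used to mark NK cells. A second library of the same cells was made with non-immune rabbit serum in place of the Runx3 antibody, and its values were not used here. There is 1 library per antibody and the labels do not give the number of mice pooled, so no value has a replicate error. The list holds positions alone, with neither heights nor read counts. Sequencing depth is therefore not known for any peak, and the identity of the cells could not be checked against marker genes.

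NK cells kill by forming a contact with a target cell, at which actin filaments are rebuilt and lytic granules are brought to the membrane. Rac2 is a small GTPase found mainly in blood cells that, in its GTP-bound form, promotes actin polymerisation. Vav1 is a guanine nucleotide exchange factor that loads Rac proteins with GTP and is phosphorylated downstream of activating receptors. Coro1a (coronin 1A) binds actin filaments and regulates the Arp2/3 complex, which nucleates filament branches. Cyth4 belongs to the cytohesins, exchange factors for Arf GTPases, which act in membrane traffic and adhesion.

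Sequences of the peaks were not analysed here. Promoter sequences were taken instead from RefSeq (build GRCm38.p6, 250 bases before to 50 bases after a gene's start), whose positions cannot be set against the mm9 peaks. The promoter table matched Cyth4, Coro1a (with 2 starts) and Vav1, and 48 of the 54 genes in a list of leukocyte actin regulators that includes them. The core of the Runt-domain site, TGTGGT, was sought on both strands, with its second form TGCGGT. Neither was present in the promoter windows of Cyth4, Coro1a or Vav1, which says only that these letters are not in these 300 bases. The 48 matched genes gave 65 promoters, so genes with several starts counted more than once. TGTGGT occurred in 12 of the 65 promoters of the list (18.5%), beside 16.8% of all 32851 promoters. TGCGGT occurred in 8 of the 65 (12.3%), beside 6.45%. The ETS core AGGAAG was the motif that Cyth4, Coro1a and Vav1 had in common. It was present in 30 of the 65 promoters of the list (46.2%) and in 35.4% of all promoters. With the 250 bases before the start alone, it was present in 33.8% and 29.5%. For TGTGGT the shares in these 250 bases were 13.8% of the list and 14.0% of all. Its share in the list was thus near that of all promoters in both settings. For TGCGGT the shares in the 250 bases were 10.8% of the list (7 promoters) and 5.10% of all, and this difference was not tested. Of the other motifs searched, the T-box letters AGGTGT were present in 2 of the 65 promoters of the list (3.08%) and 13.7% of all. The AP-1 site TGACTCA was present in 6.15% and 5.20%, and the STAT site TTCNNNGAA in 6.15% and 8.30%. No difference between the list and all promoters was tested for any motif. Matches of different motifs may share some letters, but no motif contains another. The 250 bases before the start are shown for Cyth4, for the Coro1a start that holds AGGAAG, and for Vav1, with AGGAAG or its reverse complement in capitals. They lie at chr15:78596797-78597046 (plus strand), chr7:126704221-126704470 (minus strand) and chr17:57278850-57279099 (plus strand) of GRCm38.p6.
Cyth4: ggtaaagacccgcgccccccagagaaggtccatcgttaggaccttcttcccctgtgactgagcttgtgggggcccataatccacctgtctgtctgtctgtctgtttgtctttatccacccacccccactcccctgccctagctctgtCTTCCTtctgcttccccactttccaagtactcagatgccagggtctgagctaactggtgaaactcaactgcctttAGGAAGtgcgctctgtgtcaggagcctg
Coro1a: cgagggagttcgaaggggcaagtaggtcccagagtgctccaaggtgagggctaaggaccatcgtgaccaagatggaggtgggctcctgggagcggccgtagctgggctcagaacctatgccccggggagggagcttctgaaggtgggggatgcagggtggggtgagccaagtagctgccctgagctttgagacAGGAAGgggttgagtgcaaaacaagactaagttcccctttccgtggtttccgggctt
Vav1: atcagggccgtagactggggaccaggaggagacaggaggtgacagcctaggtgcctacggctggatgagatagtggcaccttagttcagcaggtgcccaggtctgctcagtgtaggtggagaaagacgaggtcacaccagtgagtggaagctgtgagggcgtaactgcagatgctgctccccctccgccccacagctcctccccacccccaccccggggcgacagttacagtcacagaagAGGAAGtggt

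The Rac2 and Cyth4 window held the longest run of closely spaced Runx3 peaks on chromosome 15. All 14 peaks formed 1 chain, in which each midpoint lay at most 10 kb from the next, between 78393623 and 78445459. The chain was 51.8 kb long, and peaks covered 9912 bp or 19.1% of it. The window, 100 kb in length, carried 0.140 peaks per kb, 17.0 times the 0.00824 per kb of chromosome 15 as a whole. When the chromosome was divided into 1000 tiles of this length laid end to end from the window, the window was the only tile with 14 or more peaks (0.100% of tiles). The median tile held 0 peaks, and 69.3% of tiles were empty. A chain of 14 or more peaks held 1.70% of the peaks of the chromosome, which is this chain itself.

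Within the chain the peaks lay in smaller groups. With midpoints at most 5 kb apart, the 14 peaks fell into 6 parts, of 3, 2, 1, 6, 1 and 1 peaks in order of position. The first part, chr15:78393623-78396639, held peaks of 526, 720 and 539 bp, the first pair of which was separated by 93 bp. The second part, chr15:78401944-78403868, held peaks of 586 and 967 bp with 372 bp between them. A single peak of 1013 bp followed at chr15:78411832-78412844. The largest part held 6 peaks in 11.1 kb (chr15:78419126-78430178) and was led by the widest peak of the window. That peak measured 1385 bp (chr15:78419126-78420510), had its midpoint at -0.18 kb from the centre of the window and ranked 18th by width among the 825 peaks of chromosome 15. The other 5 peaks of this part measured 771, 427, 608, 591 and 556 bp, and the peak of 427 bp (chr15:78424448-78424874) was the narrowest of the window. The chain ended with 2 single peaks of 606 and 617 bp, 8.47 kb apart. The widest peaks of the chain, of 967, 1013 and 1385 bp, stood at its 5th to 7th positions. Their midpoints were -16.62, -7.66 and -0.18 kb from the centre of the window. The first and the last peak of the chain measured 526 and 617 bp.

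**Figure D1:**
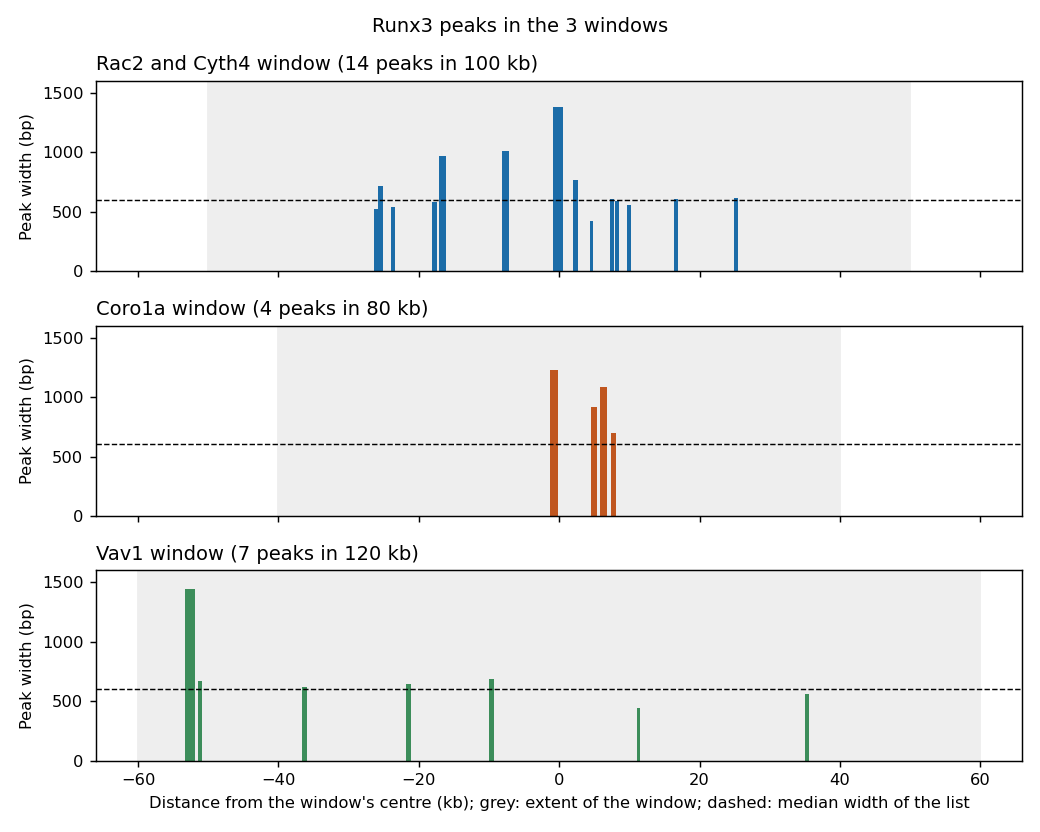
Width of each Runx3 peak in bp (bar height, and bar breadth to scale) against its distance in kb from the centre of the window, for the 3 windows; grey marks the window and the dashed line the median width of the list, 604 bp. The 14 peaks of the Rac2 and Cyth4 window lie within 51.8 kb, the 4 of Coro1a within 9.46 kb, and the 7 of Vav1 are spread over 88.9 kb.

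The surroundings of this chain were uneven. The nearest peak before it, chr15:78366890-78367350, lay 2.88 kb outside the window and was separated from the chain by 26.3 kb without a peak. The 100 kb tile before the window held 13 peaks, the second highest count on the chromosome, in 3 chains of at most 7 peaks, so the 200 kb together held 27. On the other side, the next peak (chr15:78551003-78551512) followed only after 106 kb, and the tile after the window held 1 peak. By gene order in GRCm38.p6, Rac2 is directly followed by Cyth4, with Il2rb, C1qtnf6 and Sstr3 before Rac2 and Elfn2, Mfng and Card10 after Cyth4. Il2rb encodes the beta chain of the IL-2 and IL-15 receptors. Which of these genes a given peak lies in or next to was not determined.

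A count of 14 or more peaks was rare in the whole list. Over all 20 chromosomes, 20 other tiles of 100 kb had at least 14 peaks, of 25525 tiles, and they reached 18 peaks at most. Their longest chains held between 4 and 15 peaks, with a median of 8, and in 1 of the 20 all peaks formed a single chain as at Rac2 and Cyth4. The peaks of these 20 tiles extended over a median of 85.0 kb, against 51.8 kb in the window. The window was chosen from the positions of its peaks, whereas the tiles were laid without regard to theirs. Some tiles also hold more peaks, so the comparisons of chains and of extent are not like for like. Coverage was not higher at Rac2 and Cyth4: peaks took up 9.91% of the window, a value that 14 of the 20 other tiles reached or passed.

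At Vav1 the peaks were spread out. The 120 kb window held 7 peaks, 0.0583 per kb, which was 5.32 times the density of chromosome 17. Of 767 tiles of this length on the chromosome, 35 (4.56%) had 7 or more peaks, the window included, and the fullest had 19. A single pair lay within 10 kb, and the other 5 peaks stood alone, with neighbouring midpoints 11.8 to 24 kb apart. The pair at the start of the window comprised the widest of the 25 peaks, 1441 bp (chr17:57386725-57388165), and a peak of 670 bp (chr17:57388491-57389160) 325 bp further on. The wide peak ranked 17th by width among 1011 peaks of the chromosome.

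Single peaks at Vav1 were narrower than the first of the pair. They measured 618 bp (chr17:57403412-57404029), 647 bp (chr17:57418202-57418848), 686 bp (chr17:57429985-57430670), 447 bp (chr17:57451107-57451553) and 565 bp (chr17:57475035-57475599). The 2 narrowest were the 2 farthest along, and each was more than 20 kb from the peak before it. Midpoints were 14.9, 14.8, 11.8, 21 and 24 kb from the peak before, so the median spacing in the window, 14.8 kb, was not far below that of the chromosome, 18.8 kb. In the Rac2 and Cyth4 window the median spacing was 2.49 kb and at Coro1a 1.47 kb, beside 21.8 kb on chromosome 15 and 18.8 kb on chromosome 7. Among the 34 other tiles of chromosome 17 with 7 or more peaks, the longest chain held a median of 3 peaks and at most 8, and 7 of the 34 had, like Vav1, no chain longer than 2.

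The Vav1 window also stood at the edge of a long stretch without peaks. After its last peak, the next Runx3 peak on chromosome 17 was chr17:63719303-63719694. The 6.24 Mb between them was the widest gap between neighbouring peaks on the chromosome and the 21st widest of 19627 in the list. Before the window, the nearest peak was 37.5 kb away (chr17:57348802-57349255). By gene order in GRCm38.p6, Vav1 follows C3, Trip10 and Gpr108 and is followed by Adgre1, which encodes the macrophage marker F4/80, and then by Vmn2r120, a vomeronasal receptor gene, and Cntnap5c. Whether reads could be placed in the gap was not tested.

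**Figure D2:**
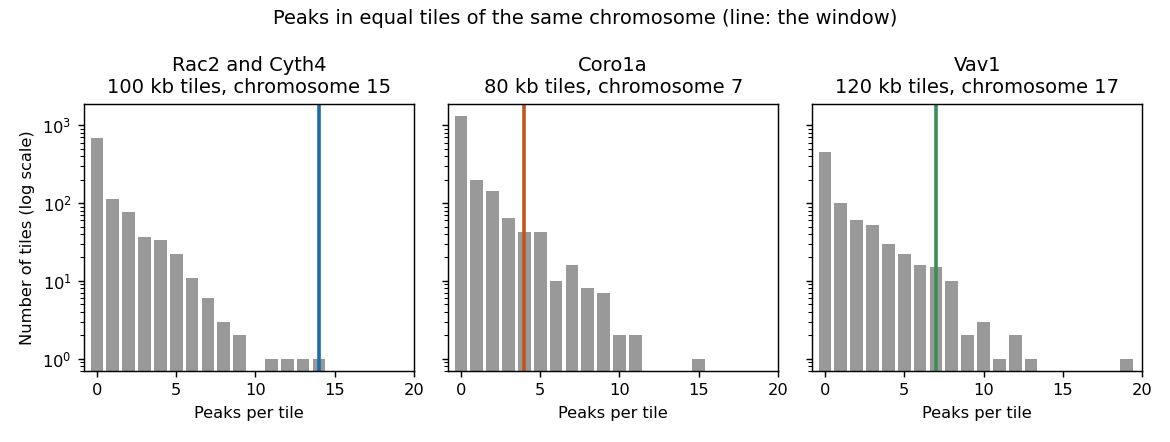
Number of tiles (log axis) by the number of Runx3 peaks they hold, for tiles of 100, 80 and 120 kb on chromosomes 15, 7 and 17; the coloured line is the count in the window named above each panel. The line lies at the end of the distribution for Rac2 and Cyth4 (14 peaks) and inside it for Coro1a (4) and Vav1 (7).

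At Coro1a the peaks were fewer than in the other windows, wide and close together. All 4 lay in the 9.46 kb from 133838668 to 133848127 of chromosome 7, in the middle of an 80 kb window that was otherwise free of peaks. They measured 1231 bp (chr7:133838668-133839898), 919 bp (chr7:133844508-133845426), 1086 bp (chr7:133845766-133846851) and 700 bp (chr7:133847428-133848127). The first was separated from the second by 4609 bp, and the last 3 were separated from each other by 339 and 576 bp. Peaks took up 41.6% of these 9.46 kb. By gene order in GRCm38.p6, Coro1a lies after Sult1a1, Slx1b and Bola2 and before Mapk3, Gdpd3 and Ypel3. Mapk3 encodes the kinase ERK1, and which gene a peak belongs to was not determined.

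Counts as high as that at Coro1a were found elsewhere on its chromosome. The window had 0.0500 peaks per kb, 5.24 times the mean of chromosome 7, but 131 of 1862 tiles of 80 kb (7.04%) had 4 or more, and the fullest had 15. The tile after it held 7 peaks and the tile before it 3. In the 1000 kb around the centre of the window, the part outside the window held 49 peaks, or 0.0533 per kb, so the density in the window was 0.939 times that of its surroundings. The same ratio was 3.41 at Rac2 and Cyth4 and 2.57 at Vav1. At Vav1 all 20 surrounding peaks lay before the window, and against that side alone the ratio was 1.28, beside 3.94 at Rac2 and Cyth4 and 1.05 at Coro1a. The nearest peaks on either side were 38.9 kb before (chr7:133799240-133799750, 0.505 kb outside the window) and 42.1 kb after (chr7:133890183-133890645).

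The Coro1a peaks were wide. Their median width was 1002.5 bp, against 612 bp for chromosome 7 with quartiles of 514 and 778 bp. Among the 130 other tiles of chromosome 7 with 4 or more peaks, the median width was as high in 1, and the peaks extended over 9.46 kb or less in 0. Over all chromosomes, 1510 other tiles of 80 kb had 4 or more peaks, of which 11 had as high a median width and 19 as short an extent. These tiles hold up to 17 peaks. More peaks take up a longer extent, and a median over more peaks varies less, so neither comparison is like for like. Of the 53 other chains of 4 or more peaks on the chromosome, 7 were no longer than the Coro1a chain, 2 had as large a share of their length covered and 0 had as high a median width. The typical chain among the 53 was 15.5 kb long, had 22.4% of its length covered and a median peak width of 640.5 bp. Chains of 4 or more held 19.3% of the peaks of chromosome 7. They had up to 9 peaks, so their median widths too can vary less than that of 4 peaks. When peaks separated by up to 1000 bp were joined, the 4 peaks became 2, and 17.6% of tiles then had as many as the window.

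**Figure D3:**
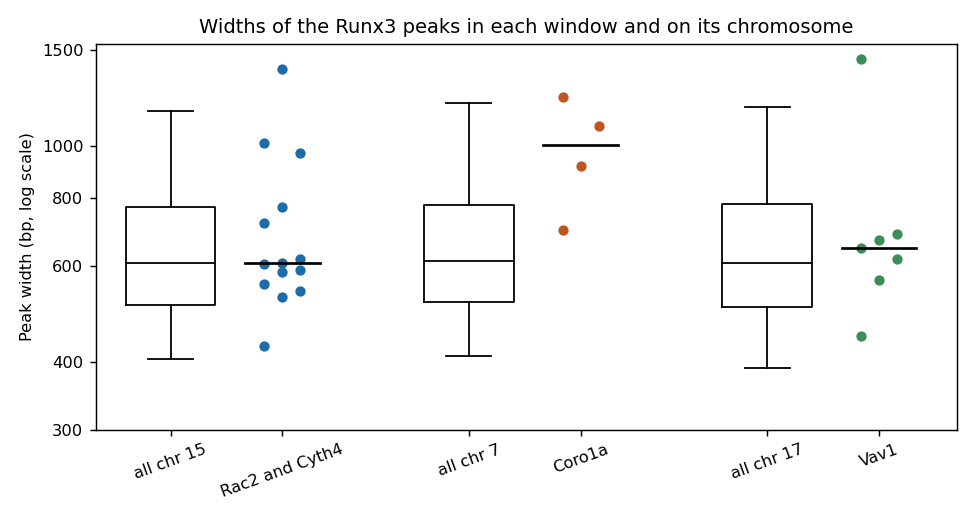
Peak width in bp (log axis) for all peaks of chromosomes 15, 7 and 17 (box: quartiles and median, whiskers: 5th to 95th percentile) and for each peak of the window on that chromosome (points, with a line at their median). The 4 Coro1a peaks lie between 700 and 1231 bp, above the chromosome median of 612 bp, whereas the medians at Rac2 and Cyth4 (607 bp) and Vav1 (647 bp) lie inside the boxes.

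Over the 3 windows, 17 of the 25 peaks (68.0%) were at or above the median width of the list, as 50.1% of all peaks were. Peaks wider than 1000 bp numbered 5 of 25, beside 10.4% of all peaks. They comprised 2 at Rac2 and Cyth4, 2 at Coro1a and the first peak at Vav1. Below the lower quartile of the list, 506 bp, were the peak of 427 bp at Rac2 and Cyth4 and that of 447 bp at Vav1. At Rac2 and Cyth4 the median width of 607 bp equalled that of chromosome 15, so the crowding of peaks there did not come with wider peaks. The selection rule takes peaks by midpoint and not by width. The windows were chosen with earlier results of these data known, however, so widths may not be independent of the choice. The 25 peaks of 1 library, several of them neighbours, are no replicates, and no test of width was made.

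At 10 kb, spacing set the Vav1 window apart from the Rac2 and Cyth4 window and from Coro1a. Another peak lay within 10 kb of 20 of the 25 peaks, beside 50.4% of all peaks in the list. Those 20 were all 14 peaks at Rac2 and Cyth4, where the share on chromosome 15 was 51.3%, all 4 at Coro1a, where it was 56.8% on chromosome 7, and 2 of the 7 at Vav1, where it was 52.5% on chromosome 17. At a distance of 2 kb the longest chain held 3 of the 4 Coro1a peaks, 3 of the 14 at Rac2 and Cyth4 and 2 of the 7 at Vav1. At 5 kb these counts were 3, 6 and 2. The Vav1 peaks joined only at longer distances, 5 of them at 15 kb and all 7 at 25 kb. Of the 22 neighbouring pairs in the windows, 6 were separated by less than 1000 bp and 1 of these by less than 100 bp. Whether such pairs are single regions listed as separate peaks was not tested. After joining them, 11, 2 and 6 peaks were left at Rac2 and Cyth4, Coro1a and Vav1.

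**Figure D4:**
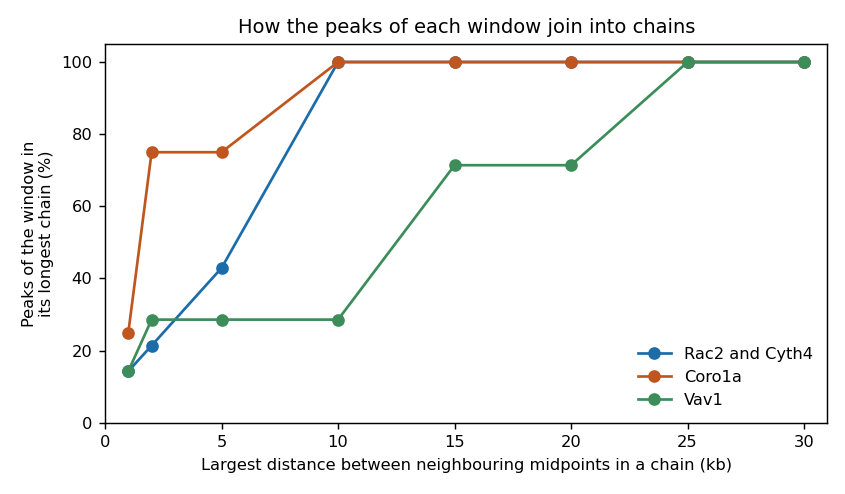
Share of the peaks of each window (in percent) that its longest chain holds, against the largest distance in kb allowed between neighbouring midpoints. All peaks of Coro1a and of Rac2 and Cyth4 are in 1 chain at 10 kb, where the longest chain at Vav1 holds 28.6% of its peaks, and those of Vav1 join fully at 25 kb.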

How the data were processed

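Runx3 and control ChIP-seq libraries were made from fixed chromatin (1% formaldehyde) with fragments of about 200 bp, and ELAND aligned the 50 bp reads, per the labels' protocols. Per the submitters' processing notes, CASAVA 1.8.2 and mm9 were used. How peaks were called, at which threshold and against which control is not stated in these sources, nor is the meaning of "to small" in the list's name. The authors deposited the start and end of each peak in bp, with no header and no score. Starts counted from 0 and were printed counted from 1. Peaks were assigned to a window by their midpoint. Equal tiles were laid end to end from each window over the span from the first to the last peak of the chromosome, and chains joined peaks with midpoints at most 10 kb apart (Python 3.11.15, numpy 2.4.6; figures with matplotlib 3.10.9). Counting was tested on 20 simulated lists. Motifs were exact matches. All peaks of the windows, and the nearest peak outside each edge, could be named. The members, windows and lists were chosen with earlier results of these data known.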

Additional observations from a re-analysis of the deposited data

How the results depend on the processing

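Of 82 recomputed values, 60 stayed within a set range and 22 moved, and the cause was not tested. The range was within 1.5 times the reported count, width or ratio. For shares of tiles or promoters it was the exact 95% binomial interval. The 60 include window counts that could not change, because only the comparison tiles were altered (slid windows, all chromosomes, tiles with a peak). At Rac2 and Cyth4 the share of tiles as full was between 0.0500% and 0.326%. In the reported setting the window was the only such tile of 1000, so the interval was wide, 0.00253% to 0.556%. Staying inside it is therefore a weak check, and the interval treats neighbouring tiles as independent. With peaks below the list's median width dropped, 8 were counted there, all in 1 chain at 10 kb. With all 14 peaks kept, chains at 5 kb held at most 6. The filter and the 5 kb distance were not combined. At Coro1a, joining gaps of up to 1000 bp left 2 peaks in a chain of 2 with a median width of 2425.5 bp, and a window 1.5 times as long held 7 peaks. The share of tiles as full as Coro1a (7.04%) was 4.74% over all chromosomes, 1.93% for wider peaks, 17.6% for joined peaks, 24.4% among tiles with a peak, and 4.92% and 2.09% for the longer and shorter window. For Vav1 (4.56%) it was 2.47% over all chromosomes, 2.48% for wider peaks, 11.0% among tiles with a peak, and 9.98% and 9.25% for the longer and shorter window. The shorter Vav1 window held 3 peaks. In the full Vav1 window the longest chain, of 2, had 5 peaks at 20 kb and 1 after joining. The promoter window of 250 bases and the density against the side before a window were chosen after seeing the data. With 250 bases, TGTGGT was in 13.8% of the list's promoters and 14.0% of all. Against the side before it, the Vav1 density was 1.28 times and not 2.57 times that of the surroundings. No paired analysis was possible because there is a single library for each antibody. Depth was not recorded in the list, so sites too weak to be called cannot be counted.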
